A study of Mus musculus with 9 samples.

Results

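A set of 10 growth factor genes known from liver regeneration was followed in 9 mouse liver RNA-seq libraries. They are 4 ligands of the ErbB receptors (Hbegf, Areg, Tgfa and Btc), the receptors Egfr, Epha2 and Met, the Met ligand Hgf, and the growth response genes Myc and Ccnd1. The members were selected by gene symbol from their known roles and from values of these same libraries, so their levels, changes and calls are given as a description. No p-value is printed for them, and a call (defined below), which rests on an adjusted p, is no test of a member. All 10 were found among the 54532 genes of the table, and 9 of them were among the 9699 genes that were tested because their mean reached 1 FPKM (fragments per kilobase of gene length, scaled to library size). Hgf, with a mean of 0.998 FPKM, fell just under that limit.

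Livers came from male C57BL/6 mice aged 5 to 7 weeks, with 3 libraries in each of 3 groups. NC livers are labelled as control, and the injection they received is not given in the sources used here. Mice of the APAP group received 500 mg/kg acetaminophen (APAP), a drug whose overdose injures hepatocytes, and mice of the AMSC group received the same dose and directly afterwards 200000 adipose-derived mesenchymal stem cells (AMSCs) into the tail vein, which had been grown from inguinal fat of C57BL/6 mice. Livers of both APAP-dosed groups were taken after 6 h, and fasting overnight preceded the overdose. The whole liver was sequenced, so that in every result here fewer cells of a type and less RNA per cell cannot be told apart. The title of NC replicate 3 carries an earlier date than those of the other 8 libraries, and its values are given with and without it where it changes a call or a direction.

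In the liver, ErbB ligands are made as membrane-bound precursors that ADAM proteases release, and they act on EGFR, which hepatocytes carry at a high level. HGF is made mainly by stellate and endothelial cells, is activated outside the cell by serine proteases, and acts on the hepatocyte receptor MET. Both pathways are known for driving hepatocytes into the cell cycle after tissue loss, a step marked by early induction of Myc and later induction of cyclin D1, the product of Ccnd1.

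Promoter sequences are shown for Areg and Epha2, because both genes were high in APAP livers and much lower in AMSC livers, and both windows hold the letters TGACGTCA, the palindromic cAMP response element (CRE), which are in capitals. The RefSeq table (GRCm38.p6) held windows of 250 bases before to 50 after the gene start for 7 of the 10 members, namely Areg, Tgfa, Btc, Egfr, Epha2, Hgf and Met. The Areg window is chr5:91139349-91139648 on the plus strand and the Epha2 window chr4:141300971-141301270 on the plus strand, and the first base of the CRE letters lies 61 bases before the RefSeq start of Areg and 33 bases before that of Epha2.
Areg: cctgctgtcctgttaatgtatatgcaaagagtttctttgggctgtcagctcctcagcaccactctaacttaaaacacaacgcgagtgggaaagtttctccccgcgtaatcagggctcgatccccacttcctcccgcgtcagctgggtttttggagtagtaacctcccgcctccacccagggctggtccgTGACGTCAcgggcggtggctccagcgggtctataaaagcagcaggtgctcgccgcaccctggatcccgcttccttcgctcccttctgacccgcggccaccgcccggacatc
Epha2: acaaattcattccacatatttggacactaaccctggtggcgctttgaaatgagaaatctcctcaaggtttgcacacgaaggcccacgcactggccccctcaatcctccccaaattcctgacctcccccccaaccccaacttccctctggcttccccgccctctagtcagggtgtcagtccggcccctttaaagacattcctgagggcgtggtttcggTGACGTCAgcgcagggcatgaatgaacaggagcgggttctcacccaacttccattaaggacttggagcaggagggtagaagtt

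The CRE letters were found in 588 of all 32851 promoter windows (1.79%), on either strand, and in none of the other 5 members with a window. The AP-1 letters TGACTCA (searched on both strands, with no overlap with TGACGTCA) stood in 5.20% of all windows and, of the members, in Met. The E-box letters CACGTG stood in 7.15% of windows and again in Met. The NF-kB motif stood in 9.38% of windows and, of the members, in Egfr, and the CArG box in 1.63% of windows and in no member. A match of letters is a description of the window and no measure of binding.

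Hbegf, Areg, Epha2 and Myc were near 0 or low in NC livers and high 6 h after APAP, and Btc moved the same way at a low level. In livers that had also received AMSCs, Hbegf, Areg and Epha2 were much lower than in APAP livers, whereas Myc and Btc differed less from APAP livers. Areg, Btc and Myc, and on few reads Hbegf, were above NC in every AMSC library, while Epha2 overlapped NC. Egfr, the common receptor, overlapped between all groups, and Ccnd1 and Met were lower after APAP. A gene is called where limma gave an adjusted p of at most 0.05 and the log2 fold change was at least 1 in size. By this rule 5 of the 9 tested members were called higher in APAP against NC livers, beside 5.09% of all genes tested, and 1 was called lower, beside 2.80%. In AMSC against APAP livers 0 members were called higher, beside 0.742% of all genes, and 3 were called lower, beside 1.22%. In AMSC against NC livers 1 member was called higher, beside 3.92% of all genes, and 0 were called lower, beside 2.09%. When all genes above 0 were tested, the calls of Hbegf and Areg in AMSC against APAP and of Myc in AMSC against NC were lost. Of all 10 members, 9 had groups that did not overlap in APAP against NC, beside 43.2% of all genes tested, 6 in AMSC against APAP, beside 27.0%, and 6 in AMSC against NC, beside 43.5%. As these values chose the members, nothing is read from the counts, from the call of a member or from its persistence under other settings. Hbegf, Areg and Btc also reached the mean of 1 FPKM only with the APAP libraries, as their NC and AMSC libraries alone fall under it. The filter thus kept these genes for being high in APAP livers, and their calls in comparisons with APAP livers carry that selection. The comparisons share libraries, so each is given by its own values. Under TPM, a rescaling of FPKM that sets every library to the same sum, the median change of all genes was -0.29 in APAP against NC, 0.10 in AMSC against APAP and -0.18 in AMSC against NC, beside -0.0043, 0.01 and 0.02 in FPKM, and 34.4%, 48.8% and 42.6% of the called genes were higher, in place of 64.5%, 37.9% and 65.2%. No tested member changed sign under TPM.

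**Figure D1:**
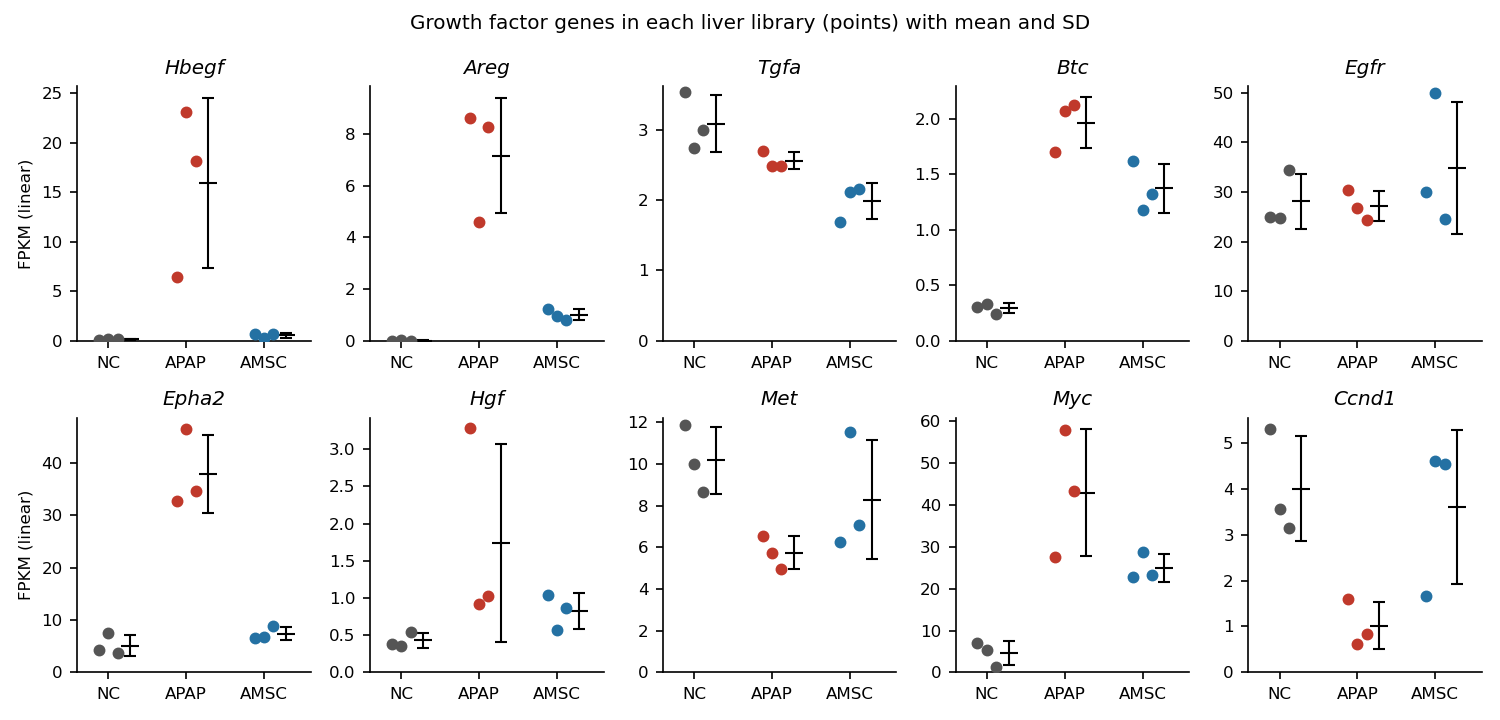
FPKM of the 10 genes (y axes, linear and starting at 0) in each library of the NC, APAP and AMSC groups, with 1 point per library and the mean and SD of 3 libraries beside the points. The APAP points of Hbegf, Areg and Epha2 stand above all points of the other groups, while Egfr points of the 3 groups overlap.

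Hbegf encodes heparin-binding EGF-like growth factor, a ligand of EGFR and ERBB4 (gene ENSMUSG00000024486, chromosome 18, 36504929 to 36515805 of GRCm38, minus strand). It was at 0.0505, 0.171 and 0.220 FPKM in NC livers, at 6.41, 23.2 and 18.2 FPKM in APAP livers and at 0.743, 0.292 and 0.673 FPKM in AMSC livers. The 3 groups did not overlap, and every APAP library was far above every other library. The mean was 15.9 ± 8.61 FPKM (SD, n = 3) in APAP against 0.147 ± 0.0873 FPKM in NC livers, a log2 fold change on the FPKM + 1 scale of 3.72 (SE 0.39). In reads, 1466 in the APAP libraries stood against 18 in the NC libraries, a ratio per depth of 106 with an exact 95% counting interval of 67.0 to 180, which covers counting error alone. The log2 fold change of AMSC against APAP was -3.28 (SE 0.40), with 61 reads in the AMSC libraries. Against NC, the AMSC level was higher by a log2 fold change of 0.44 (SE 0.15), or a read ratio of 3.95 (95% counting interval 2.30 to 7.10), and this rests on few reads. It was 0.18 after quantile normalization, 0.69 in TPM, 1.43 with a pseudocount of 0.1 and 1.99, then called, by voom on recovered reads.

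Areg encodes amphiregulin, an EGFR ligand best known from epithelial repair (ENSMUSG00000029378, chromosome 5, 91139599 to 91148432, plus strand). In NC livers it had no read in replicates 1 and 3 and a single read in replicate 2, at 0.0476 FPKM. APAP livers held 8.59, 4.58 and 8.27 FPKM, and AMSC livers 1.24, 0.950 and 0.821 FPKM. The groups did not overlap, and the AMSC libraries lay between the NC and the APAP libraries. The log2 fold changes were 2.96 (SE 0.21) for APAP against NC, -1.99 (SE 0.22) for AMSC against APAP and 0.98 (SE 0.12) for AMSC against NC. The 344 APAP reads against 1 NC read gave a ratio per depth of 449 (95% counting interval 80.0 to 17773). The 54 AMSC reads against that read gave 63.0 (10.8 to 2532). The AMSC against NC change lies just under the minimum fold of the call and was called in TPM (1.62), with a pseudocount of 0.1 (3.26), by voom on recovered reads (4.88), without AMSC replicate 4 (1.04) and with replicate numbers as a block (1.03). That block fit rests on replicates 2 and 3 alone, which no label pairs. The call of Areg in AMSC against APAP was lost when all genes above 0 were tested.

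Btc encodes betacellulin, a ligand of EGFR and ERBB4 (ENSMUSG00000082361, chromosome 5, 91357261 to 91402994, minus strand). Its level was 0.305, 0.333 and 0.244 FPKM in NC, 1.70, 2.07 and 2.12 FPKM in APAP and 1.62, 1.17 and 1.32 FPKM in AMSC livers. APAP and AMSC libraries were all above NC, and the APAP libraries stood above the AMSC libraries by a narrow gap. Log2 fold changes were 1.19 (SE 0.13) for APAP against NC, -0.32 (SE 0.13) for AMSC against APAP and 0.87 (SE 0.12) for AMSC against NC, and the last was called in TPM (1.20), with a pseudocount of 0.1 (1.90) and by voom (2.21). Unlike Hbegf and Areg, Btc was at 69.8% of its APAP mean in AMSC livers, compared with 3.57% for Hbegf and 14.1% for Areg.

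Tgfa encodes transforming growth factor alpha, an EGFR ligand that hepatocytes themselves make (ENSMUSG00000029999, chromosome 6, 86195223 to 86275719, plus strand). It was the most abundant of the 4 ligands in NC livers, at 3.53, 2.74 and 2.99 FPKM. It was at 2.70, 2.49 and 2.49 FPKM in APAP livers and at 1.69, 2.11 and 2.16 FPKM in AMSC livers. The groups were ordered NC, APAP, AMSC from high to low without overlap. The log2 fold changes were -0.19 (SE 0.12) for APAP against NC, -0.26 (SE 0.12) for AMSC against APAP and -0.45 (SE 0.12) for AMSC against NC. In TPM they were -0.50, -0.22 and -0.72, and APAP against NC was -0.12 without NC replicate 1. The ligand order therefore differed between groups: on the FPKM scale, which is per length, Tgfa led in NC and AMSC livers, and Hbegf and Areg, whose APAP libraries overlapped each other, led in APAP livers.

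Egfr encodes the receptor of these ligands (ENSMUSG00000020122, chromosome 11, 16752203 to 16918158, plus strand). Its level was 25.0, 24.8 and 34.5 FPKM in NC, 30.5, 26.8 and 24.3 FPKM in APAP and 29.9, 49.9 and 24.6 FPKM in AMSC livers. The groups overlapped in every comparison, with 1 AMSC library, replicate 3, above the rest. The log2 fold change of APAP against NC was -0.04 (SE 0.16), and it was 0.12 without NC replicate 3 and 0.04 without APAP replicate 3. For AMSC against NC it was 0.25 (SE 0.25), with -0.03 without AMSC replicate 3, 0.40 without NC replicate 3 and 0.46 without AMSC replicate 4. For AMSC against APAP it was 0.29 (SE 0.25), and 0.0020 without AMSC replicate 3, 0.50 without AMSC replicate 4 and 0.58 with replicate numbers as a block. The block value rests on replicates 2 and 3 alone. In TPM the Egfr change was -0.34 for APAP against NC, 0.39 for AMSC against APAP and 0.05 for AMSC against NC. Egfr was the highest of the 10 members in NC and AMSC livers and stood behind Myc and Epha2 in APAP livers.

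Epha2 encodes an ephrin receptor tyrosine kinase of epithelial cells (ENSMUSG00000006445, chromosome 4, 141301240 to 141329384, plus strand). It was at 4.26, 7.46 and 3.70 FPKM in NC, 32.8, 46.5 and 34.6 FPKM in APAP and 6.57, 6.76 and 8.94 FPKM in AMSC livers. All APAP libraries stood above all others, and NC and AMSC libraries overlapped. The mean was 38.0 ± 7.47 FPKM in APAP, 5.14 ± 2.03 FPKM in NC and 7.43 ± 1.31 FPKM in AMSC livers (SD, n = 3). The log2 fold changes were 2.70 (SE 0.24) for APAP against NC, -2.20 (SE 0.18) for AMSC against APAP and 0.49 (SE 0.22) for AMSC against NC. With 298 to 2695 reads per library, Epha2 had far more reads behind it than Areg or Hbegf.

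Myc encodes a transcription factor of growth and ribosome production (ENSMUSG00000022346, chromosome 15, 61985391 to 61990374, plus strand). Its level was 6.97, 5.43 and 1.33 FPKM in NC, 27.5, 57.9 and 43.2 FPKM in APAP and 22.9, 28.9 and 23.2 FPKM in AMSC livers. Both APAP-dosed groups stood above NC without overlap, and the APAP and AMSC groups overlapped through APAP replicate 1 and AMSC replicate 3. The log2 fold changes were 3.10 (SE 0.46) for APAP against NC, 2.39 (SE 0.40) for AMSC against NC and -0.70 (SE 0.25) for AMSC against APAP, or -0.46 without APAP replicate 2. Without NC replicate 3, the lowest Myc library, they were 2.55 (SE 0.30) for APAP against NC and 1.85 (SE 0.15) for AMSC against NC, both past the thresholds of a call. The Myc mean in AMSC livers was 58.3% of its APAP mean, whereas that of Epha2 was 19.6%.

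Ccnd1 encodes cyclin D1, which partners CDK4 and CDK6 in early cell cycle entry (ENSMUSG00000070348, chromosome 7, 144929931 to 144939925, minus strand). It was at 5.31, 3.56 and 3.13 FPKM in NC, 1.60, 0.617 and 0.837 FPKM in APAP and 1.67, 4.61 and 4.54 FPKM in AMSC livers. APAP libraries were all below NC, and AMSC replicate 2 stayed close to the APAP libraries while the other 2 AMSC libraries were within the NC range. The log2 fold change was -1.32 (SE 0.22) for APAP against NC. For AMSC against APAP it was 1.14 (SE 0.31) and was not called, but it passed the call without AMSC replicate 2 (1.50). It also passed with replicate numbers as a block (1.17), a fit that rests on replicates 2 and 3 alone, which no label pairs. For AMSC against NC it was -0.17 (SE 0.30), with 0.18 without AMSC replicate 2, 0.0061 without NC replicate 1, -0.30 without NC replicate 3, -0.35 without AMSC replicate 3 or 4 and -0.40 in TPM. The gene overlaps Oraov1 on the opposite strand, at a mean of 1.20 FPKM, and whether the counting used strand is not stated, so some reads may belong to it. Of the other members, Tgfa, Egfr and Hgf also overlap annotated genes, whose means were at most 0.154 FPKM.

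Met encodes the HGF receptor (ENSMUSG00000009376, chromosome 6, 17463800 to 17573980, plus strand). Its level was 11.9, 9.98 and 8.66 FPKM in NC, 6.54, 5.72 and 4.95 FPKM in APAP and 6.24, 11.5 and 7.09 FPKM in AMSC livers. NC libraries were all above APAP libraries, and the AMSC libraries spread over both. The log2 fold change of APAP against NC was -0.73 (SE 0.15), under the minimum fold, and -1.07 in TPM. It was 0.43 (SE 0.21) for AMSC against APAP and -0.30 (SE 0.21) for AMSC against NC. Without AMSC replicate 3 these changes were 0.19 and -0.54, and the latter was -0.14 without AMSC replicate 2, -0.19 without NC replicate 1, -0.52 in TPM and -0.11 with replicate numbers as a block. The block value rests on replicates 2 and 3 alone. AMSC replicate 3 was highest of its group in both Met and Egfr.

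Hgf encodes hepatocyte growth factor (ENSMUSG00000028864, chromosome 5, 16553495 to 16620152, plus strand). It was at 0.384, 0.354 and 0.550 FPKM in NC, 3.28, 0.921 and 1.03 FPKM in APAP and 1.04, 0.567 and 0.861 FPKM in AMSC livers. APAP and AMSC libraries were above NC, and APAP replicate 1 stood far above every other library. In the fit of all genes above 0, the log2 fold change of APAP against NC was 0.84 (SE 0.35), and 0.47 (SE 0.09) without APAP replicate 1. For AMSC against APAP it was -0.49 (SE 0.35), and -0.12 (SE 0.15) without that library. For AMSC against NC it was 0.35 (SE 0.12). The summed level of 7 stellate cell markers was likewise highest in APAP replicate 1, at 98.4 FPKM beside 46.4 and 79.3 FPKM in the other APAP livers, 32.9 to 56.4 FPKM in NC and 39.6 to 68.7 FPKM in AMSC livers. Of these markers Dcn, Colec11, Rgs5 and Reln were highest in APAP replicate 1, but the others were not. Lrat had a lower mean in APAP (1.16 FPKM) than in NC livers (2.25 FPKM). Des was highest in APAP replicate 3 (2.12 FPKM) and Ngfr in AMSC replicate 2 (1.97 FPKM). The part of stellate cell RNA in the Hgf level was not tested.

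**Figure D2:**
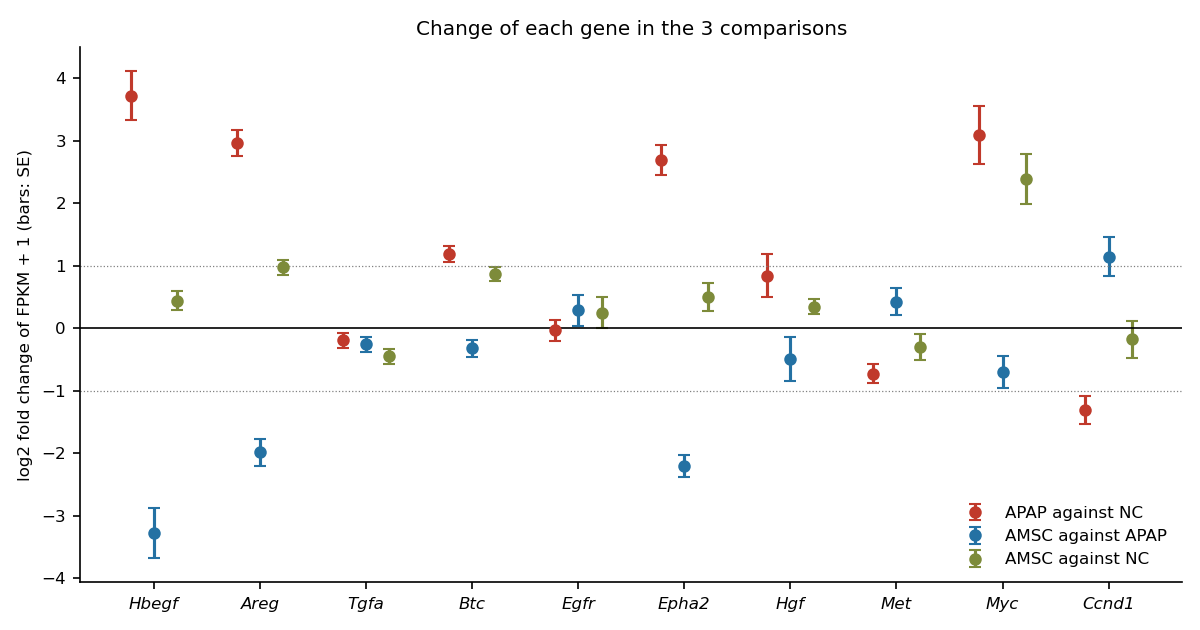
Log2 fold change of FPKM + 1 (y axis) of each gene in APAP against NC, AMSC against APAP and AMSC against NC livers, with bars for the SE and dotted lines at the minimum fold of a call, 1 and -1. Hbegf, Areg and Epha2 lie at 3.72, 2.96 and 2.70 in APAP against NC and at -3.28, -1.99 and -2.20 in AMSC against APAP, while Myc lies at 3.10 and -0.70. Hgf comes from the fit of all genes above 0.

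The order of levels shows how far the group was reshuffled. On the FPKM scale, NC livers were ordered Egfr, Met, Epha2, Myc, Ccnd1, Tgfa, Hgf, Btc, Hbegf and Areg, of which the neighbours from Epha2 to Tgfa overlapped in their libraries. APAP livers were ordered Myc, Epha2, Egfr, Hbegf, Areg, Met, Tgfa, Btc, Hgf and Ccnd1, where Myc overlapped Epha2, Hbegf overlapped Areg, Areg overlapped Met, and the neighbours from Btc to Ccnd1 overlapped. AMSC livers were ordered Egfr, Myc, Met, Epha2, Ccnd1, Tgfa, Btc, Areg, Hgf and Hbegf. In this group Tgfa was apart from Btc, Myc from Met, and Epha2 from Ccnd1, and the other neighbours overlapped. Hbegf thus moved from next to last in NC to the place after Egfr in APAP livers, and Ccnd1 from the middle to the last place.

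The genes whose pattern over the 9 libraries was most like that of Hbegf, by Pearson's r of log2(FPKM + 1) over all genes tested, were Otud1 (0.994), Hilpda (0.987), Itga2b (0.986), Thbs1 (0.985) and Lag3 (0.983). Hilpda, which encodes a lipid droplet protein, had means of 1.17 FPKM in NC, 151 FPKM in APAP and 5.30 FPKM in AMSC livers. For Hgf they were Add3 (0.979), Rgs5 (0.977), Reln (0.976), Vezf1 (0.967) and Adgrf5 (0.965), of which Rgs5 and Reln are on the list of stellate cell markers. These values are a description, since all points of a group share its treatment.

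The other 7 genes of the EGF family were mostly near 0. Of these only Nrg4, which encodes the ERBB4 ligand neuregulin 4, reached the mean of 1 FPKM. Nrg4 was at 1.48, 1.02 and 1.25 FPKM in NC, 0.528, 0.930 and 0.821 FPKM in APAP and 2.62, 5.36 and 2.17 FPKM in AMSC livers. Its AMSC libraries were all above the others, so that in AMSC against APAP it moved opposite to Hbegf and Areg, while in AMSC against NC all 3 had changes above 0. It rose in AMSC against APAP livers with a log2 fold change of 1.25 (SE 0.26, limma adjusted p = 0.0421), a call lost without any single library, with changes of 0.95 to 1.45. It overlaps Fbxo22 on the opposite strand. Ereg, which encodes epiregulin and like Areg is a low-affinity EGFR ligand, was at 0.163 to 0.397 FPKM in APAP livers, at 0.0140 to 0.0704 FPKM in NC and at 0.0186 to 0.0458 FPKM in AMSC livers. Nrg1 was at 0.180 to 0.764 FPKM in APAP livers, at 0.0112 to 0.0232 FPKM in NC and at 0.0487 to 0.0771 FPKM in AMSC livers. Nrg1 had the order of Hbegf, while the NC and AMSC libraries of Ereg overlapped, and both genes were too low to be tested. Egf, Epgn and Nrg2 did not exceed 0.116 FPKM in any library, and Nrg3 was at 0 in all 9.

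**Figure D3:**
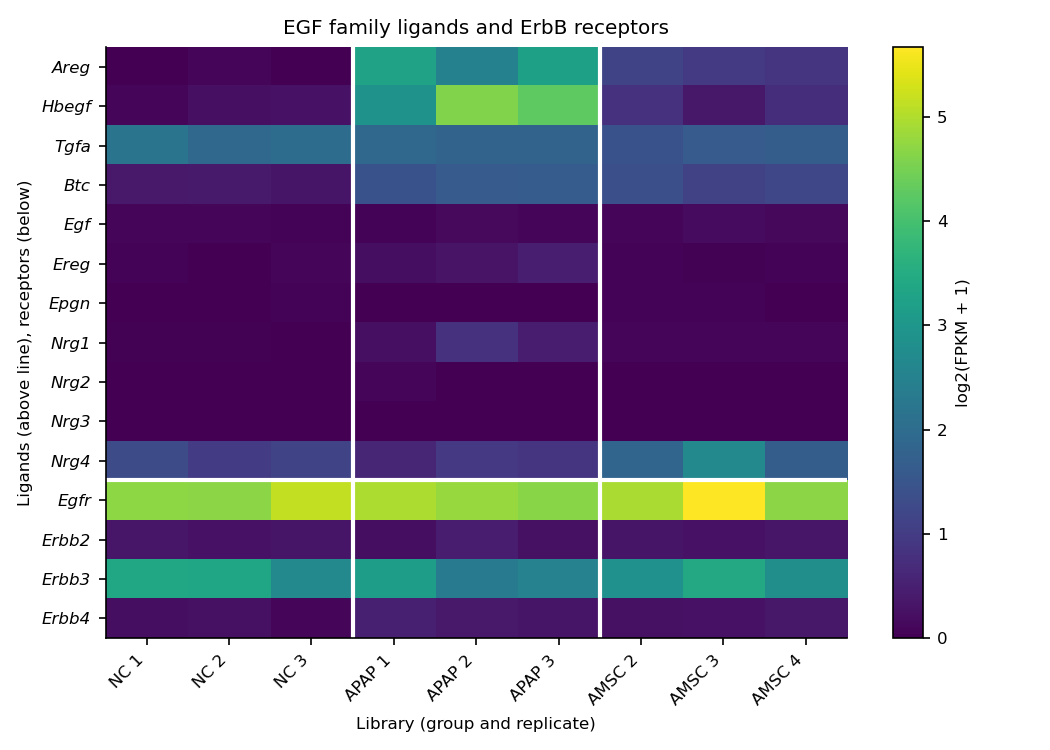
Colour shows log2(FPKM + 1) of 11 ligands of the EGF family (rows above the white line) and the 4 ErbB receptors (below it) in each of the 9 libraries (columns). Areg and Hbegf are bright in the APAP columns, and Egfr is bright in every column.

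The members of the surrounding pathways were taken from 10 lists with 158 genes in the table, of which 90 were tested. The lists were chosen with earlier results of these data known. Nothing is therefore read from their shares, and the adjusted p-values of list genes, Nrg4 included, are no independent test. In APAP against NC livers 7 of the 90 rose (7.78%) and 2 fell (2.22%), beside 5.09% and 2.80% of all genes tested, with a median log2 fold change of 0.16 beside -0.0043 for all genes tested. In AMSC against APAP livers 2 rose (2.22%, beside 0.742%) and 1 fell (1.11%, beside 1.22%), with a median of -0.08 beside 0.01. In AMSC against NC livers 8 rose (8.89%, beside 3.92%) and 0 fell (beside 2.09%), with a median of 0.05 beside 0.02. Near the ligands and Egfr, 0 of 8 tested ErbB receptors and adaptors passed in any comparison, where Erbb3, the receptor with the highest level after Egfr, was at 5.35 to 9.41 FPKM in NC, 4.13 to 8.12 FPKM in APAP and 5.99 to 9.77 FPKM in AMSC livers. Of 7 shedding genes, Rhbdf2, which encodes the carrier iRhom2 of the protease ADAM17, rose in APAP against NC (1.25, SE 0.24, limma adjusted p = 0.00911) and in AMSC against NC (1.02, adjusted p = 0.00156), calls that were lost without APAP replicate 2 (0.9997) and without NC replicate 3 (0.91) or AMSC replicate 4 (0.98). Adam17 itself had log2 fold changes of -0.08 and -0.26. Of 6 ErbB inhibitors, Errfi1, an EGFR feedback inhibitor, rose in both (1.24, limma adjusted p = 0.00476, and 1.04, adjusted p = 0.00230), from 220 to 323 FPKM in NC to 563 to 823 FPKM in APAP and 557 to 576 FPKM in AMSC livers. In TPM both Errfi1 changes were under 1 (0.93 and 0.83), and that of AMSC livers was 0.87 without NC replicate 3.

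Near Hgf and Met, 1 of 5 tested genes of HGF activation rose after APAP. Plaur, the urokinase receptor, was at 0.137, 0.110 and 0.178 FPKM in NC, 1.22, 3.33 and 4.44 FPKM in APAP and 0.217, 0.147 and 0.432 FPKM in AMSC livers. Its libraries were thus high in the APAP group alone, as for Hbegf and Epha2, with log2 fold changes of 1.71 against NC (limma adjusted p = 0.00631) and -1.57 in AMSC against APAP (adjusted p = 0.0373). The latter call was lost without APAP replicate 2 or 3 or any single AMSC library, with changes of -1.30 to -1.66. Every NC and AMSC library of Plaur was at 0.432 FPKM or less, so it reached the mean of 1 FPKM through the APAP libraries alone. The filter thus kept Plaur for being high in the group that both p-values compare, and they are no independent test of that pattern. Near Epha2, 1 of 4 tested Eph and ephrin genes rose in AMSC against NC livers, namely its ligand gene Efna1 (1.72, SE 0.24, limma adjusted p = 0.00165), from 8.48 to 13.6 FPKM in NC to 26.1 to 47.3 FPKM in AMSC livers. Efna1 was at 13.0 to 27.1 FPKM in APAP livers.

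Near Ccnd1, 1 of 13 tested cyclin and cell cycle genes passed. Cdkn1a, which encodes the cyclin-dependent kinase inhibitor p21, rose from 0.186, 0.488 and 0.229 FPKM in NC to 44.7, 83.3 and 60.9 FPKM in APAP and 67.2, 45.5 and 82.1 FPKM in AMSC livers. Its log2 fold changes against NC were 5.58 (SE 0.22, limma adjusted p = 1.41e-05) and 5.63 (SE 0.21, adjusted p = 2.29e-06), and the APAP and AMSC libraries overlapped. Another 16 genes of this list, Mki67, Top2a and Cdk1 among them, were below the mean of 1 FPKM. Among these, Ccnb2, the cyclin B2 gene, was at 0.680 FPKM or more in every APAP library, at 0.157 FPKM or less in NC and at 0.261 FPKM or less in AMSC livers. Ccnb2 rests on 68 reads over all libraries. The APAP and NC libraries of Cdk1 overlapped, while those of Mki67 and Top2a did not, at 0.296 FPKM or less. Pcna, a replication gene, was at 9.46 to 11.8 FPKM in NC, 15.7 to 25.2 FPKM in APAP and 14.0 to 18.4 FPKM in AMSC livers, under the minimum fold in both against NC (0.88 and 0.61). Near Myc, 2 of 22 tested network and target genes passed in APAP against NC. Mnt, a repressor that shares the partner MAX with MYC, rose by 1.16 (limma adjusted p = 0.00644), a change of 0.96 without APAP replicate 2. Srm, the spermidine synthase gene and a textbook MYC target, fell by 1.83 on the log2 scale (limma adjusted p = 0.000478), from 43.7 to 58.2 FPKM in NC to 10.6 to 15.3 FPKM in APAP livers. The direction of Srm was opposite to that of Myc in the same libraries. The genes of this list that did not pass went both ways. The median log2 fold change of the list in APAP against NC was -0.12, beside -0.0043 for all genes tested.

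Of 18 other growth factor and receptor genes, Cyr61, a matricellular factor gene, rose by 3.44 in APAP and 3.33 in AMSC livers against NC (limma adjusted p = 1.41e-05 and 2.29e-06), Fgf1 fell by 1.11 on the log2 scale in APAP livers (adjusted p = 0.00372) and Vegfa rose by 1.01 in AMSC livers (adjusted p = 0.00117). Vegfa was under the minimum fold in TPM (0.82) and without NC replicate 1 (0.99), NC replicate 3 (0.92) or AMSC replicate 3 (0.94). Of 6 genes of priming cytokines and their receptors, Tnfrsf1b rose in APAP against NC (1.16, or 0.92 in TPM, limma adjusted p = 0.00495) and Tnfrsf1a in AMSC against NC (1.32, adjusted p = 0.000808). Il6ra, the interleukin 6 receptor gene, rose in AMSC livers both against APAP (1.01, limma adjusted p = 0.0259) and against NC (1.20, adjusted p = 0.00352). Its call against APAP was lost without APAP replicate 1 or 3 or AMSC replicate 3 or 4, with changes of 0.93 to 0.98. Errfi1, Cdkn1a, Fgf1 and Il6ra overlap other annotated genes, so their levels may include reads of these.

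**Figure D4:**
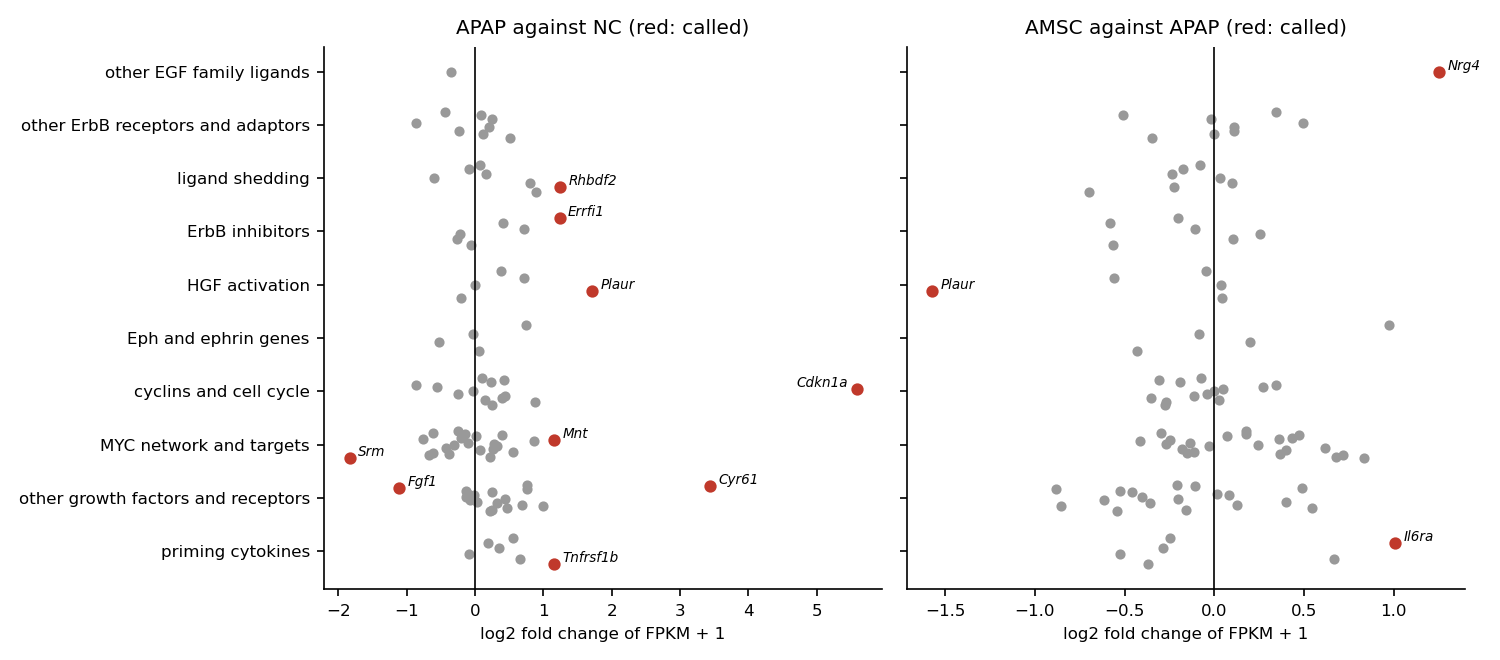
Log2 fold change of FPKM + 1 (x axes) of the 90 tested genes of the 10 pathway lists (rows) in APAP against NC and AMSC against APAP livers, with called genes in red and named. Cdkn1a at 5.58 and Cyr61 at 3.44 lie farthest to the right in the first panel, and Plaur at -1.57 farthest to the left in the second.

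Hepatocyte markers were high in every library, as the label liver states, with a summed level of 6 genes of 40950 to 44351 FPKM in NC, 56006 to 64471 FPKM in APAP and 50958 to 53818 FPKM in AMSC livers. Alb led this sum, and Cyp2e1 of the same list went the other way after APAP. Cyp2e1 was at 3247 to 3605 FPKM in NC, 294 to 1541 FPKM in APAP and 3488 to 3848 FPKM in AMSC livers. Like the hepatocyte sum, those of neutrophil, cholangiocyte and erythroid markers were higher in all APAP than in all NC libraries, while those of Kupffer, endothelial, stellate, lymphocyte and mesenchymal stromal markers overlapped between APAP and NC. Hbegf, Areg, Btc, Epha2, Hgf and Myc had their highest means in the APAP group. The sum of 8 neutrophil markers was 0.173 to 1.66 FPKM in NC, 7.31 to 33.5 FPKM in APAP and 4.07 to 5.79 FPKM in AMSC livers, with Camp at 0 in all libraries and Mpo at 0 in 8 of 9. The sum of 6 Kupffer cell markers was 46.3 to 95.9, 66.4 to 177 and 40.4 to 64.9 FPKM, that of 6 sinusoidal endothelial markers 18.6 to 40.1, 22.7 to 58.6 and 21.1 to 22.4 FPKM, that of 7 lymphocyte markers 0.374 to 1.03, 0.969 to 2.03 and 0.627 to 1.02 FPKM, and that of 5 erythroid markers 135 to 254, 306 to 1406 and 183 to 312 FPKM, in the same order of groups. The sum of 6 cholangiocyte markers was 18.9 to 40.3, 57.9 to 98.0 and 27.5 to 50.9 FPKM, in which Sox9 was at 0.970 to 2.14, 21.4 to 33.1 and 2.49 to 3.74 FPKM and the defining gene Krt7 stayed below 0.229 FPKM. Hbegf, Epha2 and Myc were highest in APAP replicate 2, the APAP library with the lowest sums of neutrophil, Kupffer cell, endothelial, stellate and erythroid markers and the highest sum of cholangiocyte markers. Spp1 (59.8 FPKM) and Sox9 (33.1 FPKM) led that cholangiocyte sum. These genes, Epcam and Krt7 were highest in APAP replicate 2, but Krt19 (3.29 FPKM) and Cldn7 (1.34 FPKM) were highest in APAP replicate 3. Among APAP libraries, Areg and Hgf were lowest in replicate 2 and highest in replicate 1, which had the highest sums of neutrophil, endothelial and stellate markers. The part of other cells in the levels of the 10 genes was not tested. The sum of 8 mesenchymal stromal markers, which the injected cells could carry, was 26.5 to 28.1 FPKM in AMSC livers. It was 32.2 to 37.7 FPKM in NC and 29.1 to 48.7 FPKM in APAP livers. Dpp4 and Eng led this sum, with means of 13.3 and 9.09 FPKM in AMSC and 16.6 and 13.5 FPKM in NC livers. Nt5e (0.887 FPKM) and Prrx1 (0.0232 FPKM) had their highest means in AMSC livers, and the other genes of the list did not. Prrx1 was at or below 0.0348 FPKM in every library. The part of injected cells in these levels was not tested.

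**Figure D5:**
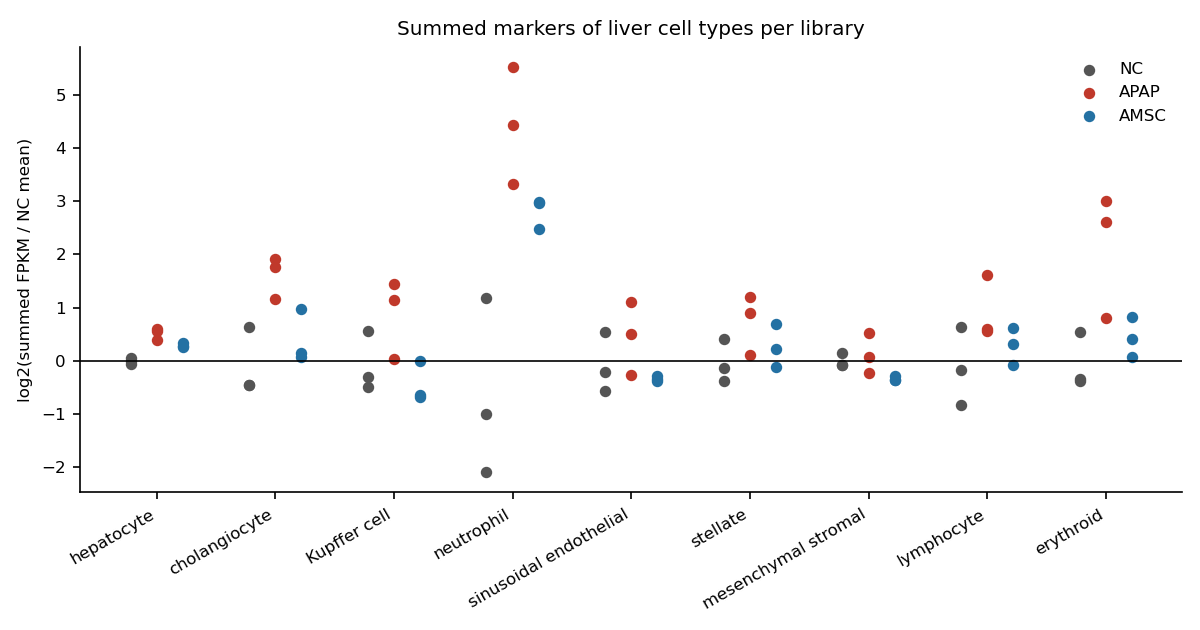
Summed FPKM of the marker genes of each cell type, as log2 of its ratio to the NC mean (y axis), with 1 point per library. The neutrophil, erythroid, cholangiocyte and hepatocyte sums of the 3 APAP livers lie above those of all NC livers, and the hepatocyte sums differ least between libraries.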

How the data were processed

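RNA from 9 livers was made into libraries with the SMARTER mRNA-Seq kit, per the labels. The authors deposited FPKM values per gene with gene lengths and coordinates, on GRCm38 (mm10) per the submitters' processing notes, and 98.3% of 54409 gene identifiers shared with GENCODE M21 had the same start and end. The aligner, the counting program and its strand setting are not given in the sources used here. FPKM divides reads by gene length and library size, and its depth was recovered from whole reads. Products of FPKM and length were whole reads in all libraries (100.0% of values within 0.1), with 13418921 to 16210930 reads on genes, and 1 read on 1 kilobase was worth 0.0578 to 0.0807 FPKM. Values under that level rest on few reads.

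Libraries were grouped by their labels. Log2(FPKM + 1) was fitted, for the 9699 genes whose mean reached 1 FPKM, with limma 3.58.1 (lmFit, eBayes with trend, R 4.3.3), 1 fit for each pair of groups, with Benjamini-Hochberg adjustment over all genes of the fit, and the script was tested on simulated data. The study's methods name a count model for its own comparisons. Here the deposited FPKM were tested with limma, and voom on recovered reads was an alternative. SE is that of the log2 fold change. A gene was called if its adjusted p did not exceed 0.05 and its log2 fold change reached 1 in either direction. Counting intervals are exact 95% intervals of the ratio of summed reads. The members and lists were chosen with earlier results of these data known, and the text names the members, the called genes of the lists, the other EGF family genes, the 5 genes most like Hbegf and Hgf, and in addition Erbb3, Adam17, 5 cell cycle genes and single marker genes, chosen after their values were seen. Ccn1 and Ccn2 are listed as Cyr61 and Ctgf. A gene of the pathway lists is not reported here and was left out of their counts. The study's methods call the libraries of a group biological replicates, while the labels do not name the mice. NC and APAP libraries with the same number deviated together from their group means (r = 0.213, 0.160 and 0.378), while those with unlike numbers were at 0.087 or below. These values do not establish a pairing, as deviations within a group depend on each other and no label gives one. AMSC replicate 2 and APAP replicate 3, of unlike numbers, reached 0.409. For APAP against NC, the fit with the number as a block called the same members. AMSC libraries share only 2 numbers with the other groups and were not taken as paired. The replicate block was still run on them as an alternative, and its changes then rest on replicates 2 and 3 alone. Alternatives were another pseudocount (0.1), other filters, TPM, quantile normalization, a single fit of all libraries, no trend, a replicate block, voom on recovered reads, a call by adjusted p alone and leaving out each library. Leaving out libraries in the Hgf fit was added after seeing the data. Promoter sequences come from RefSeq.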

Additional observations from a re-analysis of the deposited data

How the results depend on the processing

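Calls of members describe the settings and are no test of the members, which these same values chose. The calls of members in APAP against NC livers were the same 6 under every alternative except a mean of at least 5 FPKM, which left 5 members in the fit and gave 3 calls, and TPM and the call by adjusted p alone, which each added Met. In AMSC against APAP livers the 3 calls became 1 when all genes above 0 were tested, with Hbegf (-3.28) and Areg (-1.99) no longer past the adjusted p, and 2 with a mean of at least 5 FPKM, where Areg was not in the fit. In AMSC against NC livers the 1 call became 0 with all genes above 0, 3 with a pseudocount of 0.1 or in TPM, 2 with the replicate block, 4 by voom on recovered reads or by adjusted p alone, and 1 to 2 without single libraries. The Egfr change in APAP against NC (-0.04) ran from -0.12 to 0.12 without single libraries and was above 0 without NC replicate 3 (0.12) or APAP replicate 3 (0.04). The Egfr change in AMSC against NC ran from -0.033 to 0.46, below 0 without AMSC replicate 3. The Ccnd1 change in AMSC against NC ran from -0.35 to 0.18, above 0 without NC replicate 1 (0.0061) or AMSC replicate 2 (0.18). The cause was not tested. Over all genes, APAP against NC gave 766 calls, and 478 with a mean of at least 5 FPKM, 1190 in TPM, 1197 by voom and 2514 by adjusted p alone. AMSC against APAP gave 190, and 21 with all genes above 0, 102 with a mean of at least 5 FPKM, 335 with the replicate block, 296 by voom, 367 by adjusted p alone and 90 to 229 without single libraries. AMSC against NC gave 583, and 915 with a pseudocount of 0.1, 968 by voom and 2521 by adjusted p alone. Of the pathway lists, APAP against NC gave 9 calls, and 14 with a pseudocount of 0.1, 15 by voom and 29 by adjusted p alone. AMSC against APAP gave 3, and 0 with all genes above 0, 1 with a mean of at least 5 FPKM, 6 by voom or by adjusted p alone and 0 to 1 without single libraries. AMSC against NC gave 8, and 15 with a pseudocount of 0.1 or by voom and 33 by adjusted p alone. With the replicate block, whose numbers pair libraries by no label, AMSC against APAP also called Ccnd1 (1.17) and AMSC against NC also called Areg (1.03), and the same-number correlations were -0.104 and -0.293, and -0.199 and -0.309. Both of these block fits rest on replicates 2 and 3 alone. Depth limits Hbegf and Areg in NC livers most, with 18 and 1 reads in all.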
